A study of Homo sapiens with 6 samples.

Results

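The centromeres of human chromosomes 1, 9 and 16 and the edges of their large classical satellite blocks were examined through their H3K9me3 peaks. The peaks lay in 3 windows of GRCh38 (hg38), on chromosome 1 from 121.5 to 143.3 Mb, on chromosome 9 from 43.1 to 60.9 Mb and on chromosome 16 from 35.0 to 46.5 Mb. A peak belonged to a window when its midpoint lay inside it, so the choice used position and no measured value. The windows held 1514 of 14715 peaks with PURPL guide 1, 1361 of 12190 with PURPL guide 2 and 1734 of 23653 with the control guide, or 4609 of 50558 peaks over the 3 lists.

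The cells were BJ, an established line of human skin fibroblasts, used as CRISPR interference lines, a method that silences a gene by steering a repressor to it with a guide RNA. The lines labelled sgRNA-PURPL#1 and sgRNA-PURPL#2 were directed at PURPL, which encodes a p53-induced long non-coding RNA, and the line labelled sgCtrl had a control guide. Each line gave 1 H3K9me3 library and 1 input library, from cells fixed with formaldehyde, and 1 peak list per H3K9me3 library was analysed. The level of PURPL RNA was not measured in these libraries. The labels do not say whether a line was a clone or a pool. Guide names written into the single peak names differ from those in the sample titles, and each list was assigned by the name of the list. No difference below has a replicate check, no p-value is given, and the sequencing depth is unknown. In bulk chromatin, a weaker mark in all cells and loss of the mark in some cells cannot be told apart.

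H3K9me3 is the trimethylation of lysine 9 on histone H3, laid down at centromere-flanking repeats mainly by the SUV39H enzymes and bound there by HP1 proteins. Chromosomes 1, 9 and 16 carry the largest autosomal blocks of classical satellite DNA, which lie beside the alpha satellite of the centromere on the long arm and stay condensed through most of the cell cycle. The same blocks lose DNA methylation and stretch in cells that lack the DNA methyltransferase DNMT3B. In GRCh38 much of the classical satellite is a run of unknown bases, and the neighbouring centromere is modelled alpha satellite.

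Peaks in all 3 lists left long empty stretches at these places. Reads cannot be placed on unknown bases, so an empty stretch does not show that the mark is absent there. How much of each stretch is unknown bases was not checked. The longest stretch with no peak in any list ran from 125183875 to 143184630 on chromosome 1 (18001 kb), from 45517539 to 60553126 on chromosome 9 (15036 kb) and from 38280458 to 46380718 on chromosome 16 (8100 kb). Stretches of at least 100 kb with no peak divided the windows into 9 blocks, a division made after the data were seen. Each window had 1 large block of more than 2 Mb before its longest stretch, from 122230875 to 124940737 on chromosome 1, from 43318708 to 45517538 on chromosome 9 and from 36011858 to 38280457 on chromosome 16. The large blocks held most peaks of the windows, 1442 with guide 1, 1292 with guide 2 and 1653 with the control guide. No sequence was examined, so peaks were not assigned to alpha or classical satellite. A small block lay past the longest stretch, from 143184631 to 143275906 on chromosome 1 (91.3 kb), from 60553127 to 60687244 on chromosome 9 (134 kb) and from 46380719 to 46401630 on chromosome 16 (20.9 kb). The remaining blocks were 1 before the large block of chromosome 1, 1 of 114 kb that ended at its longest stretch, and a single control peak of 232 bp at 35612180 on chromosome 16.

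Annotated genes were almost free of peaks here. The windows touched 80 genes of the RefSeq table, 64 pseudogenes and 16 long non-coding RNA genes, with 0 protein-coding genes among them. The pseudogene EMBP1 on chromosome 1 (121519112 to 121571888) was the only gene touched by a peak, with 237 bp under peaks with guide 1, 569 bp with guide 2 and 232 bp with the control guide. None of the 16 promoter regions listed in the windows overlapped a peak in any of the 3 lists. No genome-wide share of genes or promoters under a peak is given here, so these counts describe the windows only.

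Less of the windows was under peaks with both PURPL guides, and the 3 chromosomes differed in how much remained. The windows held 1683 kb under peaks with guide 1 and 1404 kb with guide 2, against 2701 kb with the control guide, which is 62.3% and 52.0% of the control length. Outside the windows 51.9% was left with guide 1 and 39.4% with guide 2. On chromosome 1 the length was 737 kb with guide 1 and 587 kb with guide 2, against 977 kb with the control guide, so 75.5% and 60.1% was left. On chromosome 9 it was 565 kb and 488 kb with the guides and 871 kb with the control guide, leaving 64.9% and 56.1%. Chromosome 16 kept the least, with 381 kb and 328 kb with the guides, 853 kb with the control guide, and 44.6% and 38.4% left. With the 12190 highest-scoring peaks of each list, its share was 59.6% with guide 1 and 59.0% with guide 2, still the lowest of the 3. In the lists as deposited, the 3 windows differed more from each other with the guides than with the control guide.

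In the lists as deposited, the numbers of peaks differed less than the lengths. Guide 1 had 648, 480 and 386 peaks on chromosomes 1, 9 and 16, guide 2 had 565, 454 and 342, and the control guide had 720, 512 and 502. The peak number on chromosomes 9 and 16 was thus 93.8% and 76.9% of the control with guide 1, and 88.7% and 68.1% with guide 2. Over the 3 windows the numbers were 87.3% and 78.5% of the control, against 84.4% and 82.0% in the gene-free stretches of the other chromosomes described below and 60.2% and 49.4% in all peaks outside the windows. The part of each list in the windows was 10.3% with guide 1, 11.2% with guide 2 and 7.33% with the control guide, and the other gene-free stretches held 57.6%, 67.5% and 42.4%. With the 12190 highest-scoring peaks of each list, the windows held 1333 peaks with guide 1 and 1361 with guide 2, against 1247 with the control guide (10.9%, 11.2% and 10.2%), so the direction of the peak number turned. It also turned when peaks within 5000 bp were merged, to 335 and 403 with the guides and 197 with the control guide.

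Peaks were narrower with the guides in every window. The median width on chromosome 1 was 852 bp with guide 1, 824 bp with guide 2 and 1016 bp with the control guide. On chromosome 9 it was 926, 802 and 1120 bp in the same order, and on chromosome 16 it was 761, 774 and 1162 bp. Wide peaks of at least 5000 bp numbered 15 with guide 1 and 8 with guide 2, against 61 with the control guide, and held 5.76%, 3.83% and 15.4% of the length. Outside the windows they numbered 313 and 187 with the guides and 905 with the control guide, with 14.7%, 10.7% and 25.6% of the length. The median space between neighbouring peaks in the windows was 2636 bp with guide 1 and 3014 bp with guide 2, against 2010 bp with the control guide. Over all peaks outside the windows the order was the other way round, with 3508 and 3322 bp with the guides and 4793 bp with the control guide. That set joins the gene-free stretches to far sparser peaks elsewhere, and a smaller part of the control list lay in those stretches. Among the sparser peaks alone, the control guide again had the smallest median space, 67163 bp. Guide 2 was little above it at 67882 bp, and guide 1 stood at 75517 bp.

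The windows did not stand outside the range of other centromeric regions. On each of the other 20 chromosomes analysed, the gene-free stretch of at least 1 Mb with the most control peaks was taken for comparison, and these stretches kept a median of 62.6% of the control length with guide 1 (17.9% to 80.9%) and 54.0% with guide 2 (21.9% to 70.6%). Among all 23 regions, counted from the lowest share, chromosome 1 ranked 19 with guide 1 and 18 with guide 2. Chromosome 9 ranked 14 and 15. Chromosome 16 ranked 4 and 2, with chromosomes X, 18 and 12 below it for guide 1 and chromosome X alone below it for guide 2. Satellites of different chromosomes share sequence, and the sources used here do not say how reads that match several places were handled, so the regions may not be separate observations.

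**Figure D1:**
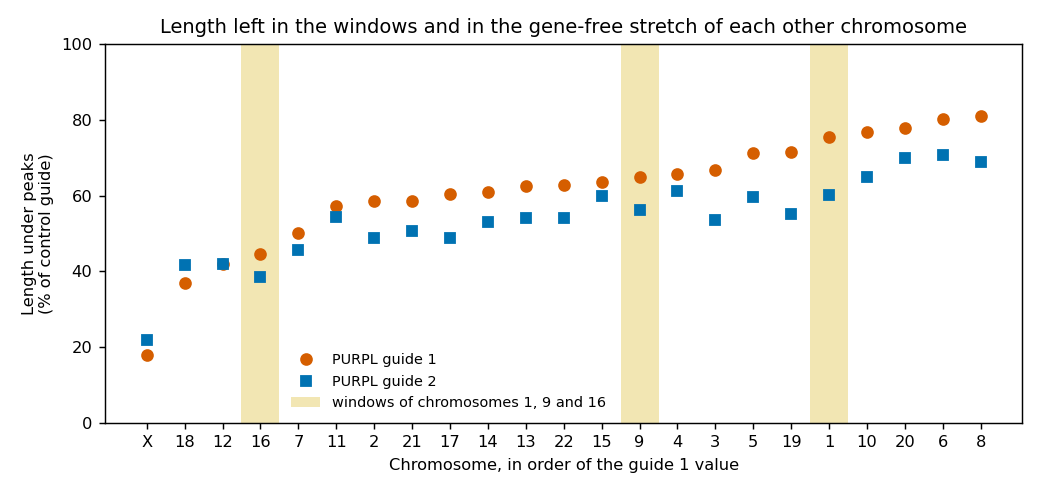
Length under H3K9me3 peaks with PURPL guide 1 (circles) and PURPL guide 2 (squares) as percent of the control guide, in the windows of chromosomes 1, 9 and 16 (shaded) and in the gene-free stretch of each other chromosome, in order of the guide 1 value. Chromosome 16 lies near the low end with 44.6% and 38.4%, and chromosome 1 nearer the high end with 75.5% and 60.1%.

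The rest of each of these chromosomes kept a smaller share than its window, by little on chromosome 16 with guide 1. Outside its window, chromosome 1 had 185 kb under peaks with guide 1 and 63.7 kb with guide 2, against 705 kb with the control guide, leaving 26.2% and 9.03%. Chromosome 9 had 126 and 48.9 kb with the guides and 478 kb with the control guide, leaving 26.3% and 10.2%. Chromosome 16 had 126 and 59.3 kb with the guides and 340 kb with the control guide, leaving 37.1% and 17.4%, against 44.6% and 38.4% in its window. Over all chromosomes, peaks outside the windows and the gene-free stretches kept 36.8% with guide 1 and 17.1% with guide 2, so a low share outside is not particular to these chromosomes.

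Where the control had at least 10 kb per 100 kb bin, nearly every bin had less coverage with the guides. In 100 kb bins with at least 10 kb of control coverage, both guides were shorter than the control in 72 of 73 bins of the windows, against 98.0% of all such bins of the genome, so the direction is that of the whole lists. Guide 1 was longer than the control in 1 of the 73 bins (1.99% of bins genome-wide) and guide 2 in 0 of 73 (0.426% genome-wide). That bin lay at the start of the large block of chromosome 1, from 122200001 to 122300000, with 28.6 kb with guide 1, 13.5 kb with guide 2 and 26.0 kb with the control guide. Guide 2 was shorter than guide 1 in 61 of 73 bins, against 76.1% genome-wide. Bins entered by control coverage alone, here and in the bin counts that follow, which favours bins where the control is high. Some window bins under the limit had more coverage with a guide than with the control, among them the chromosome 9 bin described below.

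A difference of at least 1.5-fold separated the 3 chromosomes more clearly. Both guides were lower by at least that factor in 10 of 30 bins on chromosome 1, 12 of 22 on chromosome 9 and 18 of 21 on chromosome 16, against 60.9% of bins genome-wide. For guide 1 alone the counts were 11, 14 and 18 bins, with 65.3% genome-wide, and for guide 2 alone 20, 20 and 20 bins, with 81.1% genome-wide. Over the windows together, 40 of 73 bins were lower in both guides (54.8%), near the genome-wide share.

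Each large block had its own profile. On chromosome 1 the control coverage per bin ran from 13.4 to 49.8 kb (median 30.5 kb), guide 1 from 8.42 to 42.9 kb and guide 2 from 3.94 to 37.9 kb. All 3 lists reached their highest value of that block in the same bin, from 124700001 to 124800000, with 42.9 kb with guide 1, 37.9 kb with guide 2 and 49.8 kb with the control guide, and were low in the next bin, with 9.48, 3.94 and 17.5 kb. The share left per bin had a median of 73.7% with guide 1 (47.7% to 110%) and 57.5% with guide 2 (22.5% to 85.2%).

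On chromosome 9 the coverage was dense in the first 1 Mb of the block and thinned toward the empty stretch. The first 1 Mb held 340 kb with guide 1, 286 kb with guide 2 and 493 kb with the control guide, and the last 1 Mb held 147, 137 and 266 kb. The share left was 69.0% and 58.0% in the first 1 Mb and 55.2% and 51.3% in the last. Guide and control coverage followed the same slope across its 21 bins, with Spearman's rho of 0.93 for guide 1 and 0.94 for guide 2. These bins are neighbours on 1 chromosome and share the mappability of the block, so the values describe the profile only. On chromosomes 1 and 16 the same measure was 0.54 and 0.42 with guide 1 and 0.59 and 0.49 with guide 2, over 28 and 20 bins.

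On chromosome 16 the 20 such bins of the large block lay between 25.7 and 59.5 kb in the control, between 7.53 and 25.8 kb with guide 1 and between 9.03 and 24.2 kb with guide 2. The highest guide 1 bin was thus barely above the lowest control bin, and the highest guide 2 bin was below it. Guide coverage was under 50% of the control in 17 of 20 bins with guide 1 and 18 of 20 with guide 2, against 35.8% and 52.1% of all bins of the genome with at least 10 kb of control coverage. On chromosome 1 this held for 1 and 8 of 28 bins, and on chromosome 9 for 4 and 6 of 21.

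**Figure D2:**
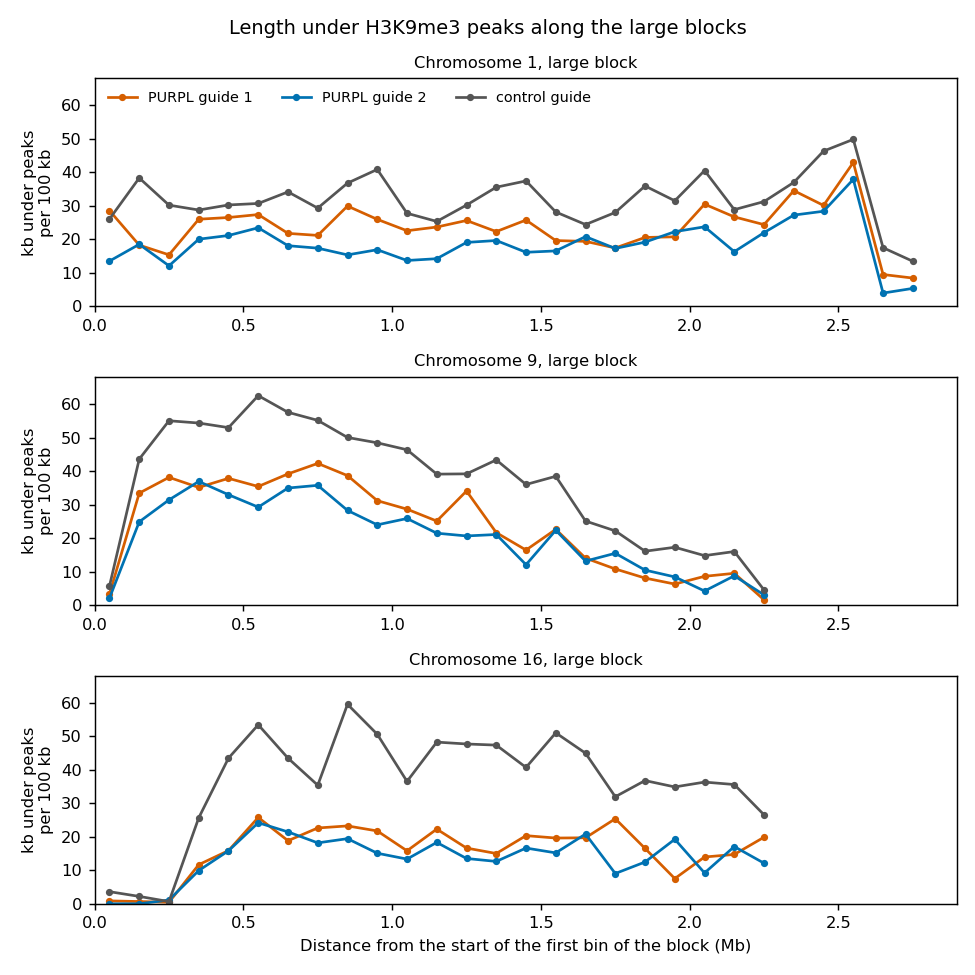
Length under H3K9me3 peaks per 100 kb bin (kb) along the large block of each window, for PURPL guide 1, PURPL guide 2 and the control guide. On chromosome 9 all 3 lines slope down toward the empty stretch, and on chromosome 16 the guide lines stay at or under 25.8 kb while the control line reaches 59.5 kb.

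The edges past the empty stretch kept more of their length than the large blocks. Past the stretch of chromosome 1, peaks covered 43.7 kb with guide 1, 43.2 kb with guide 2 and 45.6 kb with the control guide, so 95.9% and 94.7% was left, against 74.4% and 58.1% in the large block. Past the stretch of chromosome 9 they covered 23.6, 21.7 and 27.7 kb, leaving 85.1% and 78.4%, against 64.2% and 55.4% in the large block. Part of that guide length lay off the control peaks. Of the control bases of this edge, 54.7% were under guide 1 peaks and 45.6% under guide 2 peaks, against 45.9% and 40.8% in the large block. Past the stretch of chromosome 16 they covered 11.7, 12.9 and 16.6 kb, leaving 70.5% and 77.9%, against 44.1% and 37.6%. These edges held 16, 27 and 3 control peaks, so single peaks weigh heavily in them. On chromosome 9 the guide 2 share was 50.9% when peaks with a score under 22, the median of the 3 lists pooled, were left out. The blocks also differed in score. The highest percent of control scores held 13 of the 16 edge peaks of chromosome 1, 2 of the 27 of chromosome 9 and all 3 of chromosome 16. It held 5.52%, 0% and 0.402% of the control peaks of the large blocks. Over the whole list, 88.5% and 84.5% of the control bases in that band were under guide 1 and guide 2 peaks. Edges and large blocks are thus not compared at like scores.

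**Figure D3:**
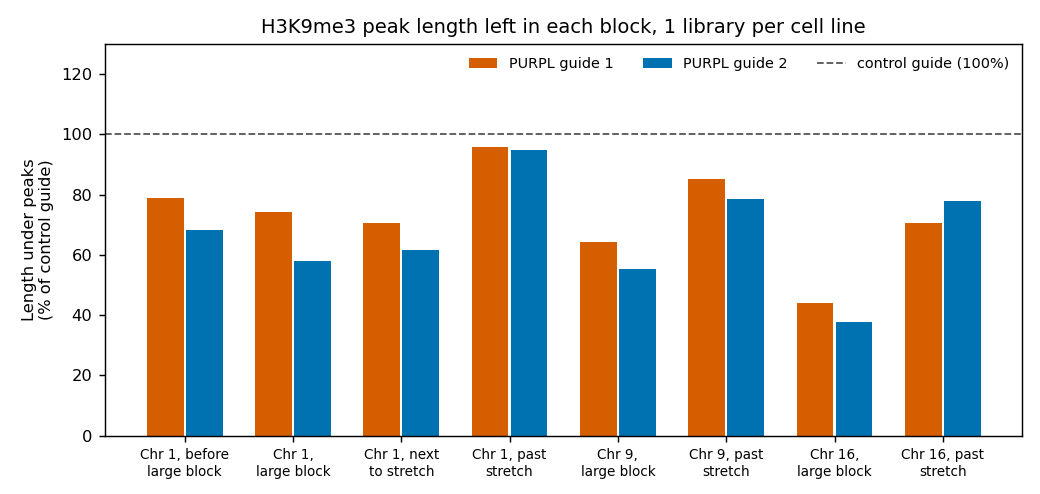
Length under H3K9me3 peaks in each block as percent of the control guide (dashed line), for PURPL guide 1 and PURPL guide 2, with 1 library per cell line; the single-peak block of chromosome 16 is left out. The edge of chromosome 1 past the empty stretch stands at 95.9% and 94.7%, and the large block of chromosome 16 at 44.1% and 37.6%.

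The edge of chromosome 1 was built largely of peaks with almost the same bounds in all 3 lists. Its widest peak ran from 143210891 to 143223447 with guide 1 (12557 bp), from 143210901 to 143223349 with guide 2 (12449 bp) and from 143210902 to 143223443 with the control guide (12542 bp). Peaks of 5389 bp with guide 1, 5391 bp with guide 2 and 5392 bp with the control guide followed at 143251578, 143251577 and 143251577. Of its 16 control peaks, 11 had both edges within 50 bp of those of a single guide 1 peak, 11 of a single guide 2 peak and 10 of both. In the whole control list this held for 4.08% of the peaks with guide 1, 3.28% with guide 2 and 1.38% with both. Of the 16 peaks, 13 were in the highest percent of control scores, against 0.998% of the whole list. These shares, and the edge distances that follow, are thus not compared at like scores. The 50 bp limit was chosen after the data were seen.

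Peak edges in the large blocks were matched far less closely. Where a control peak met a single guide peak and that guide peak no other, the median distance between their edges past the stretch of chromosome 1 was 3.5 bp with guide 1 and 3 bp with guide 2. It was 43 and 60 bp in the large block of chromosome 1, 193 and 212 bp in that of chromosome 9 and 398 and 500 bp in that of chromosome 16, against 180 and 190 bp over the whole list. Both edges lay within 50 bp in both guides for 48 of 670 control peaks in the large block of chromosome 1, 2 of 485 on chromosome 9 and 1 of 498 on chromosome 16.

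The edge of chromosome 9 matched less closely than that of chromosome 1, but more closely than the whole list. Both edges lay within 50 bp for 3 of its 27 control peaks with guide 1 (11.1%) and 4 with guide 2 (14.8%), and the median edge distance was 82 and 63 bp. The peak from 60631101 to 60632803 in the control list ran from 60631107 to 60632807 with guide 1 and from 60631097 to 60632812 with guide 2. Another control peak from 60622623 to 60626558 (3936 bp) met a guide 1 peak of nearly the same extent, 60622507 to 60626482, and 2 shorter guide 2 peaks of 221 and 1185 bp. Next to the empty stretch, between 60500001 and 60600000, the guides had more length than the control, with 6.53 kb with guide 1, 8.52 kb with guide 2 and 4.19 kb with the control guide, a bin under the 10 kb of control coverage required above. The first control peak stood at 60572489, while guide 1 had peaks at 60553127, 60557400 and 60569645 and guide 2 at 60558741 and 60568409.

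**Figure D4:**
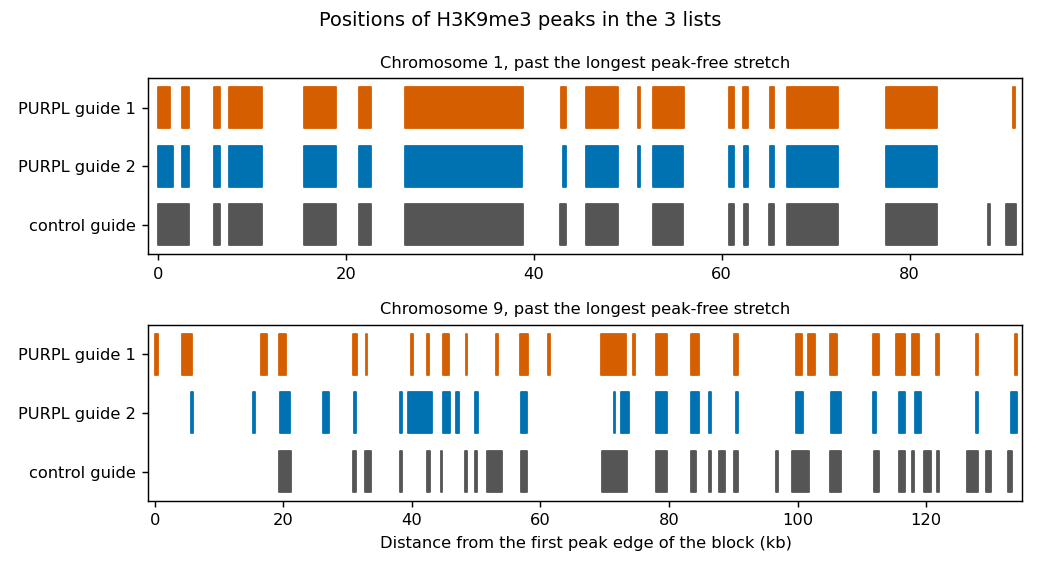
Peak positions in the blocks past the longest peak-free stretch of chromosomes 1 and 9, in kb from the first peak edge of each block, with PURPL guide 1 above PURPL guide 2 and the control guide. Most peaks of chromosome 1 line up in the 3 lists, including the peak of 12557, 12449 and 12542 bp. Fewer of those of chromosome 9 do, among them the peaks at 60631107, 60631097 and 60631101, about 78 kb from the start.

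Some of the highest scores of the lists lay at the borders of the chromosome 1 stretch, with 4 of the top 10 with guide 1, 4 with guide 2 and 3 with the control guide. Each peak's score is a value the authors assigned, of at least 10 and on an unnamed scale, and it served to order peaks within a list. The peak from 125178838 to 125183874, whose end borders the empty stretch, had rank 3 in each list, with scores of 4904 with guide 1, 2678 with guide 2 and 6585 with the control guide. Its width was 5023, 5016 and 5037 bp. On the far side, the peak from 143230138 to 143233625 ranked 9, 8 and 5, and the peak from 143200196 to 143203574 ranked 8, 7 and 8. Of the 100 highest scores of each list, 32 with guide 1, 29 with guide 2 and 34 with the control guide lay in the windows, and 26, 25 and 29 of these were on chromosome 1. The highest score of each list lay outside the windows, at 6751 with guide 1, 3062 with guide 2 and 9511 with the control guide.

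The windows of chromosomes 16 and 9 had fewer peaks of high score, and the highest lay at their edges. Past the stretch of chromosome 16, the control peaks from 46398510 to 46401630, from 46380719 to 46391976 and from 46393024 to 46395256 ranked 26, 31 and 42 in the control list. The middle one measured 11258 bp with the control guide, and over it lay 2 guide 1 peaks with 7600 bp and 3 guide 2 peaks with 7633 bp. On chromosome 9 the highest control scores were at the edge, at 60636548 to 60637269 (rank 74 with guide 1, 130 with guide 2 and 96 with the control guide) and at 60631101 to 60632803 (ranks 174, 149 and 199). The median control score was 48 in the window of chromosome 1, 26 on chromosome 9 and 22 on chromosome 16, and the share of length left followed the same order.

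Control peaks of the windows met a guide peak more often than those of the list as a whole. With an overlap of at least 1 bp, 67.5% of them were met by guide 1 (65.2 to 69.6, 95% Wilson interval) and 61.7% by guide 2 (59.4 to 64.0), against 42.7% and 35.9% of all control peaks. The intervals cover counting error only. On chromosome 1 the shares were 75.1% and 65.7%, on chromosome 9 they were 348 and 337 of 512 peaks, and on chromosome 16 56.0% and 51.8%. The gene-free stretches of the other chromosomes had 65.1% and 61.1%, close to the windows jointly. Both guides overlapped 859 of the 1734 control peaks (49.5%, against 28.8% of the whole list), and neither guide overlapped 353 (20.4%, Wilson interval 18.5 to 22.3, against 50.2%). When 50% of a control peak had to be covered, the shares in the windows were 44.8% and 35.6% and 760 control peaks had no guide partner. The number without a partner was 208 with the 12190 highest-scoring peaks of each list and 22 after merging within 5000 bp.

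The overlap was more frequent at higher control scores. In the lowest quartile of the control scores, 30.3% of the window peaks overlapped guide 1 and 33.1% guide 2, against 12.6% and 7.02% in the rest of the list. In the highest quartile the shares were 82.4% and 75.5%, against 77.7% and 71.0%. Guide peaks stood closer together in the windows than in the rest of the list, so a 1 bp overlap is met more easily there. The shares of windows and rest are therefore not like for like. The highest quartile held 69.2% of the control peaks of chromosome 1, 35.5% of chromosome 9 and 14.7% of chromosome 16.

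**Figure D5:**
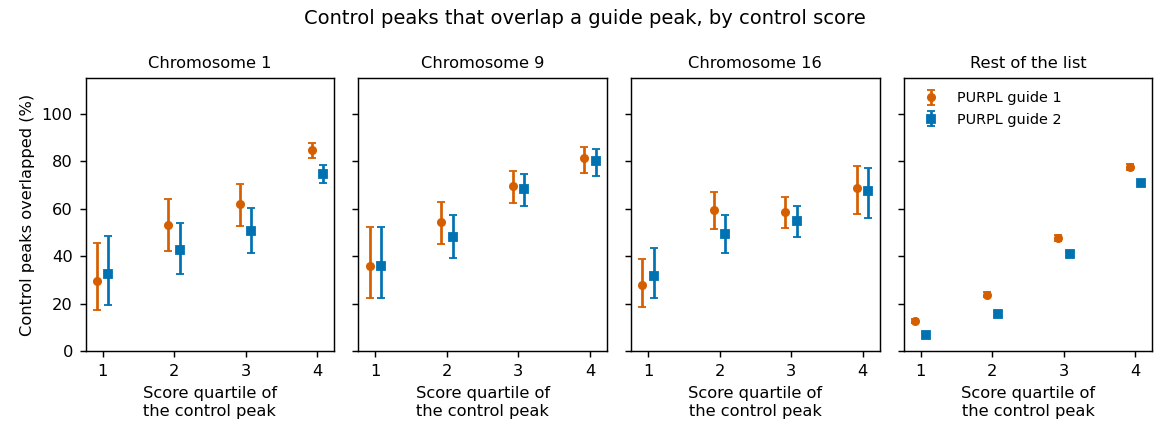
Share of control peaks that overlap a peak of PURPL guide 1 (circles) or PURPL guide 2 (squares), by quartile of the control score over the whole list, with 95% Wilson intervals. The share climbs with the score, with the exception of quartiles 2 and 3 of chromosome 16 with guide 1 (59.5% and 58.7%), and the lowest quartile stands higher in each window than the 12.6% and 7.02% of the rest of the list. Guide peaks are denser in the windows, so these levels are not like for like.

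Of the 3 large blocks, that of chromosome 16 also had the least control sequence under guide peaks within each score band below the 99th percentile. The bands are wide, the middle one with scores from 22 to below 55, so scores within a band can differ between blocks. Between the 90th and the 99th percentile the chromosome 16 block had only 5 control peaks. Among control peaks between the 50th and the 90th percentile of score, guide 1 covered 31.2% and guide 2 26.8% of the control bases in the large block of chromosome 16. The same values were 49.6% and 44.0% in the large block of chromosome 9, 52.3% and 36.2% in that of chromosome 1 and 48.6% and 37.8% in the rest of the list. Below the 50th percentile, a band with 245 of its 498 control peaks, the chromosome 16 block had 25.2% and 21.1% covered. That was above the 14.3% and 9.22% of the rest of the list and below the 29.8% and 26.8% of chromosome 9 and the 34.7% and 29.5% of chromosome 1. In the highest percent of scores the windows jointly had 83.8% and 83.6% covered, against 90.1% and 84.8% in the rest of the list. Within that band the value was 96.9% with each guide past the stretch of chromosome 1, 70.7% and 74.2% in the large block of chromosome 1 and 70.5% with each guide past the stretch of chromosome 16. The large block of chromosome 16 had 97.3% covered with guide 1 and 69.0% with guide 2, from only 2 control peaks. Past the stretch of chromosome 9 it was 99.8% and 100%, also from 2 control peaks.

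The share of control bases covered was also set beside the share of the whole block covered, since peaks meet more often in a densely covered block. In the large block of chromosome 1, guide 1 peaks covered 24.5% of the block and 59.3% of its control bases, and guide 2 peaks 19.2% and 46.2%. On chromosome 9 guide 1 covered 24.6% of the block and 45.9% of the control bases, and guide 2 21.2% and 40.8%. On chromosome 16 guide 1 covered 16.3% and 29.2%, and guide 2 13.9% and 24.8%. Guide peaks thus lay more on control bases than on the block as a whole in each of the 3 blocks, by the widest ratio on chromosome 1.

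The classes of bases differed between the 3 windows. Of the control bases in the windows, 39.4% on chromosome 1, 25.5% on chromosome 9 and 11.5% on chromosome 16 were also under peaks of both guides, against 20.8% outside the windows. Control bases under neither guide made up 29.5%, 38.3% and 55.9%, against 51.4% outside the windows, so chromosome 16 was nearest to the rest of the genome in this share and chromosome 1 farthest. Bases under both guides and not under the control came to 28.1, 43.2 and 32.5 kb.

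Many wide control peaks were met by several guide peaks. Of the 61 control peaks of at least 5000 bp, 38 overlapped 2 or more peaks of guide 1 and 38 overlapped 2 or more of guide 2, which is 62.3% each, against 73.7% and 69.7% of all 966 such control peaks. Over control peaks of any width the shares were 8.54% and 7.90% in the windows and 6.34% and 5.81% in the whole list. In the gene-free stretches of the other chromosomes they were higher, at 10.8% and 10.7%, and at 78.6% and 80.5% for wide control peaks. Width was judged in the control list alone, so narrower guide peaks over these are in part built in. Of the 415 kb under the 61 wide control peaks, guide 1 covered 208 kb and guide 2 198 kb. With guide 2 this was 47.7%, against 58.1% with guide 1 and 44.7% with guide 2 over all 966. On chromosome 9 the widest control peak ran from 43903730 to 43913977 (10248 bp), and 4 peaks of guide 1 with 5950 bp and 4 of guide 2 with 5586 bp lay on it. On chromosome 16 the widest control peak, from 37506532 to 37517918 (11387 bp), held 4 guide 1 peaks with 4652 bp and 2 guide 2 peaks with 794 bp. Wide control peaks of chromosome 1 were covered over 76.4% and 66.6% of their bases, those of chromosome 9 over 47.8% and 46.7%, and those of chromosome 16 over 35.2% and 36.4%. Only 1 of the 61 had no guide 1 peak, on chromosome 16, and none lacked a guide 2 peak.

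Control peaks without a partner in either guide numbered 118 of 720 on chromosome 1 (16.4%), 96 of 512 on chromosome 9 (18.8%) and 139 of 502 on chromosome 16 (27.7%). The share was 24.4% in the gene-free stretches of the other chromosomes and 50.2% over the whole control list. The highest-scoring of them on chromosome 1 were narrow, from 123516037 to 123516283 (rank 581 of the control list), from 124186763 to 124187008 (rank 740) and from 123919050 to 123919737 (rank 801). Guide peaks stood within 4044 bp of each. On chromosome 9 they were at 45403688, 45174190 and 43406164, with ranks 2474, 2681 and 3742, and the first was 11447 bp from guide 1 and 13338 bp from guide 2. On chromosome 16 those at 37715685 and 37298710 were broader, with 1501 and 2778 bp and ranks 2207 and 3192, followed by 1 of 239 bp at 38074960.

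Most guide peaks of the windows lay on control peaks. With guide 1 this held for 85.5% (Wilson interval 83.7 to 87.2), against 78.8% of the whole guide 1 list, and with guide 2 for 87.6% (85.7 to 89.2), against 82.3%. The gene-free stretches of the other chromosomes had 89.1% and 88.4%. The guide lists met each other for 64.1% of the guide 1 peaks (54.4% of the whole list) and 73.0% of the guide 2 peaks (68.2%). In the gene-free stretches of the other chromosomes the shares were higher, at 70.8% and 75.0%. Within the windows they were 50.3% and 58.8% on chromosome 16 and 69.8% and 81.6% on chromosome 1.

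Regions where guide 1 and guide 2 peaks met and the control had none numbered 50, of 388 in the whole lists, with 18 on chromosome 1, 22 on chromosome 9 and 10 on chromosome 16. The number in the windows was 128 with the 12190 highest-scoring peaks of each list, 85 with 50% coverage required and 5 after merging. A control peak lay within 5000 bp of all but 1 of the 50, while 61 of the 388 had none that near. The highest-scoring region, from 143235680 to 143235909, sits between control peaks of the chromosome 1 edge, 1429 bp from the nearest, with rank 64 in guide 1 and rank 44 in guide 2. On chromosome 9 the exception lay at 60557400 to 60559070, beside the empty stretch and 13418 bp from the nearest control peak, with ranks 2760 and 3186. On chromosome 16 the first region was 37141847 to 37142410 (ranks 7871 and 4457), with a control peak 722 bp away.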

How the data were processed

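H3K9me3 and input libraries of 3 BJ lines were described by their labels, and the deposited files used here were 1 peak list per H3K9me3 library giving each peak's position and score. The score is the authors' deposited whole number for each peak. The submitters' processing notes name deepTools 3.5.1, MACS2 2.2.9.1, GATK and Bowtie2 2.4.2, and the builds hg38 and GRCh38.p13. The sources used here state neither the settings and the peak threshold nor how many reads each library had, so a list of a shallower library cannot be told apart from a list of weaker marks. Gene positions and promoter regions came from RefSeq tables for GRCh38.p14.

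An overlap means at least 1 bp in common. Length left is the summed width of guide peaks as percent of control peaks. Shares of peaks have 95% Wilson intervals, and with 1 library per line no test was made. Alternatives were a score of at least the pooled median, equal peak numbers, wider windows, membership by any base, merging within 5000 bp and 50% coverage. The overlap functions were tested on simulated data. The members, the comparisons and the named regions were chosen with earlier results of these data known. Named peaks are the 3 highest-scoring of each class per window and the widest of each list. Other peaks of the small edge blocks and single bins were named after their values were seen. Computation used scipy 1.17.1, pandas 2.3.3 and numpy 2.4.6 in Python 3.11.15, and figures matplotlib 3.10.9.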

Additional observations from a re-analysis of the deposited data

How the results depend on the processing

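The share of length left in the 3 windows stayed below 100% in both guides under each alternative tried, and chromosome 16 kept the lowest share of the 3 windows with both guides in each of them. Windows 1 Mb wider on each side and membership by any base moved no share of peaks beyond its counting interval. Neither moved a count by 1.5 times. Length shares also stayed within their yardstick, for these and for the large blocks alone, an alternative chosen after seeing the data. That yardstick takes each control peak as kept or lost and does not measure the spread of a length. With peaks at or above the pooled median score of 22, chromosomes 1, 9 and 16 kept 71.2%, 50.1% and 36.1% with guide 1 and 53.4%, 45.6% and 26.5% with guide 2, and 57.4% and 50.3% of the control peaks overlapped the guides. With the 12190 highest-scoring peaks of each list, they kept 80.6%, 70.2% and 59.6% with guide 1 and 67.0%, 67.6% and 59.0% with guide 2, the overlaps were 70.2% and 69.0%, and 208 control peaks met neither guide while 128 regions of both guides had no control peak. With peaks within 5000 bp merged, they kept 81.3%, 77.9% and 59.4% with guide 1 and 64.2%, 71.5% and 49.0% with guide 2, the overlaps were 87.3% and 81.2% of 197 merged control peaks, and the counts were 22 and 5. With 50% coverage required, the overlaps were 44.8% and 35.6%, and the counts 760 and 85. Chromosome 9 thus passed chromosome 1 with guide 2 under equal numbers and under merging. The cause was not tested, except that merging and equal numbers leave fewer control peaks by construction. In the edge of chromosome 1 the share left was 94.7% to 96.7% in the alternatives tried. In the edge of chromosome 9 guide 2 ran from 50.9% with the score limit to 89.5% with equal numbers. The edge of chromosome 16 stood at 100% and 99.6% after merging, where it is 1 merged control peak. No paired analysis was possible because each line has 1 H3K9me3 library.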

Other observations

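Peaks of at least 5000 bp in the large block of chromosome 1 numbered 4 with guide 1, 0 with guide 2 and 10 with the control guide. The block of 114 kb that ends at the empty stretch of chromosome 1 held 6 peaks with guide 1, 4 with guide 2 and 12 with the control guide. Of the 12 control peaks, 7 (58.3%) were in the lower range of the control scores (below the 50th percentile). Outside the windows, 53.3% of the control peaks were in that range. Of the bases of these 7 peaks, 17.4% lay under guide 1 peaks and 16.7% under guide 2 peaks. The values outside the windows were 14.3% and 9.22%. With only 7 peaks, single peaks weigh heavily here.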
